A study of Mus musculus with 30 samples.

Results

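Unstimulated dendritic cells whose Irf4 gene had been deleted were compared with unstimulated control cells across all named genes of a 2-colour array. The cells were bone marrow-derived dendritic cells (BMDCs), which present antigen and are raised in vitro from marrow precursors, here of C57BL/6 mice, and CD11c+ cells were taken with magnetic beads before RNA extraction. Control arrays carried RNA of CD11c-Cre mice and knockout (KO) arrays RNA of CD11c-Cre IRF-4 flox/flox mice, so the Cre transgene was common to both genotypes and only the KO cells had loxP-flanked Irf4 alleles. Cre was driven by the CD11c promoter, so deletion is limited to cells that express or have expressed that promoter, and the sources used here do not date the deletion within the culture. The arrays labelled unstimulated, 5 biological replicates of each genotype, made up 10 of the 30 arrays of the series; the other 20 came from cells given lipopolysaccharide (LPS, the bacterial ligand of the receptor TLR4) for 6 or 24 h. The sources used here give no age or sex of the mice and do not say whether a biological replicate was a mouse or a culture. The p-values therefore cover only the spread among arrays. For the limma tests that spread was estimated for each gene over all 30 arrays, LPS-treated ones included.

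IRF4 belongs to the interferon regulatory factors, a family of DNA-binding proteins. It binds DNA weakly alone and mostly acts with partners, with PU.1 or SPIB at ETS-IRF composite elements and with BATF and JUN proteins at AP-1-IRF composite elements. In dendritic cells it is known for its part in the type 2 conventional lineage, in MHC class II presentation and in migration through the chemokine receptor CCR7, and in cultures of bone marrow its level rises with GM-CSF and interleukin 4. In macrophages it is known for genes of alternative activation.

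Each array set sample RNA (Cy5) against a universal mouse reference RNA (Cy3), and a level is the log2 ratio of sample over reference, which is 0 where both were equally bright. Irf4 itself lay at 1.51, 1.16, 1.28, 1.79 and 1.32 on control arrays 1 to 5 and at -2.20, -0.85, -1.06, -0.84 and -2.51 on KO arrays 1 to 5. KO arrays 1 and 5 held the lowest Irf4 levels, and the groups did not overlap. The mean was 1.41 ± 0.24 in control and -1.49 ± 0.80 in KO cells (SD, n = 5 each), a log2 difference of -2.90 ± 0.27 (± SE, adjusted p = 3.6e-08, limma) with an exact two-sided permutation p of 0.00794, the smallest that 5 arrays against 5 can give. The probe was well above background on 4 of 5 KO arrays and was not so on KO replicate 5. The sources used here do not place the probe against the deleted exons, so the check of the labels reaches only as far as the fall of the transcript.

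The 10 arrays were all scanned on 1 day and had 19951 to 27227 of 41174 probes well above background (48.5 to 66.1%) with a median Cy5 signal of 112 to 151. They lay on 4 slides, and no slide held both genotypes, so slide and genotype cannot be told apart by a comparison within a slide. Some arrays stood apart from others of their own group. In a principal component analysis of the 10 arrays, component 1 (52.3% of the variance) set control replicates 4 and 5 (-50.6 and -61.6) apart from control replicates 2 and 3 (3.72 and 3.83), and component 2 (34.1%) set KO replicates 1 and 5 (35.6 and 48.0) apart from the other KO arrays (-8.20 to -1.67). Below, calls are given with both KO replicates 1 and 5 left out and, for some genes, with single arrays left out. Control replicates 4 and 5 were left out together only in a comparison of replicates 1 to 3 of both genotypes. Control replicates 1 to 3 lay on 1 slide and control replicates 4 and 5 on another, while KO replicates 1 and 5 lay on different slides. RNA came from many cells, so a change in the number of cells of a type and a change of RNA per cell cannot be told apart.

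Of 11260 genes tested, 1587 differed between KO and control cells (14.1%, adjusted p under 0.05 over all genes, limma). Among them 803 were lower (7.13% of genes tested) and 784 higher in KO cells (6.96%), and 299 and 276 of these differed at least 2-fold. The shares of 7.13 and 6.96% are the background for every list count below. The 5 arrays of one genotype all lay beyond the 5 of the other for 643 of the genes called lower and 631 of those called higher; over all genes tested this held for 9.48% in the lower and 8.73% in the higher direction. The median difference over all genes was -0.0382. With the spread taken from the 10 unstimulated arrays alone 2112 genes were called, and 1399 of the 1587 calls were kept. Without 2 LPS-treated control arrays that resembled unstimulated ones, described below, 2138 were called and all 1587 calls were kept. With replicates 1 to 3 of both genotypes only, chosen after seeing the data, 1560 genes were called and 1117 of the 1587 calls were kept. With both KO arrays 1 and 5 left out 904 genes were called, 813 of them among the 1587. Of the genes named below, Spib, Jun, Cx3cl1, Gpr183, Pdgfa, Ebi3, Il21r, Il1a, Pdcd1lg2, Cd14, Ccl5, Cyp27a1, Hk1, Ccnd3, Asns, Relb, Stat5a, Septin5, Cst7, Fscn1, Mmp13, Ctsl and H2-DMb1 were then not called (adjusted p = 0.05002 to 0.415), beside those given with their genes. With the slide as a random block 1242 genes were called, all 1242 of them among the 1587 and in the same direction; Mmp13, Pdcd1lg2, Fscn1, Ccl5, Il1a, Cd14 and Ctsl were not among them. Median centring in place of loess moved the split between higher and lower calls to 347 and 589. A fixed term for each slide linked the genotypes only through LPS arrays on shared slides. Of the linking slides, 1 held only those 2 LPS-treated control arrays that resembled unstimulated ones. The fixed term was not fitted without them, so their part in its results was not tested. It kept 818 of the 1587 calls, and 1337 of the 1587 had the same sign.

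That fixed slide term called 2950 genes lower (26.2%) and 2748 higher (24.4%), and of the genes named below Strip2, Asgr2, Lims2, Irf5, Irf9, Spib, Psmb8, Psmb9, Psme1, Icam1, Traf1, Ccr7, Cd83, Ccl17, Cxcl14, Il1a, Il21r, Zbp1, Gbp2, Ifitm6, Ifitm1, Insig2, Pfkp, Pgk1, Atp6v1a, Atp6v0d2, Phgdh, Tsc22d3, Gadd45a, Ccnd2, Cish, Nfkbie, Jak2, Vdr, Slc2a6, Slc6a12, Tspan33, Cd9, Dpp4, H2-Aa, H2-Eb1, H2-DMb2, H2-Oa and Nfyb kept their sign and were then not called (adjusted p = 0.0678 to 0.931). It called Irf8, Spi1, Batf, B2m, Cd274, Csf2ra, Csf2rb, Gimap9, Gimap6, Hk2, Lamp1, Rela, Stat3, Cebpa, Cebpb, Adgre1, Mertk, Itgax, Ctsb, Ctsd, Ctss, Ctsz, H2-D1 and Ifi30, which did not pass without it, with the sign unchanged. Genes and lists whose direction it turned are given where they are described. Scaling the arrays to equal spread after loess left 566 genes called lower (5.03%) and 593 higher (5.27%). The named genes not called under that scaling were Gimap5, Rnase6, Plbd1, P2ry10, Asgr2, Jam2, Mmp13, Irf9, Jun, Psmb8, Psmb9, Tnfrsf9, Tnfsf4, Cd244a, Cd86, Pdcd1lg2, Traf1, Socs2, Ccr7, Cd83, Ccl24, Ccl17, Gpr183, Il1a, Ebi3, Il21r, Colec12, Ifitm1, Atp6v0d2, Asns, Socs1, Cish, Chil3, Tnip3, Stat5a, Slc2a6, Slc52a3, H2-Aa, H2-Eb1, Ctsl, H2-DMa, H2-DMb1, H2-DMb2 and Siglecf (adjusted p = 0.0513 to 0.998). With the scanner software's log ratio the calls on Ccr2, Plbd1, Mmp13, Pdcd1lg2, Ccl22, Ccr7, Il21r, Colec12, Atp6v0d2, Tnip3 and Cd22 were lost, with backgrounds as scanned those on Tnfsf4, Cd244a, Pdcd1lg2, Il21r, Colec12, Cish, Tnip3, H2-DMb1 and Siglecf, and with median centring those on Jun, Fscn1, Colec12, Trem2, Abca1, Hk1, Ccnd3, Cish, Bach1, Septin5 and Acsl3.

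The gene that fell most among those called was Upb1, which encodes beta-ureidopropionase, the last enzyme of pyrimidine breakdown. It lay at 5.28, 5.26, 5.36, 5.19 and 5.31 on control arrays 1 to 5, a range of less than 0.2, and at -0.31, 1.09, 0.95, 1.01 and -0.47 on KO arrays 1 to 5, with KO replicates 1 and 5 lowest. This was a 28.3-fold fall (log2 difference -4.82 ± 0.50, ± SE here and for each difference that follows, adjusted p = 2.58e-07), and 3 of 5 KO arrays were well above background. Septin4, a filament-forming GTPase, was at 3.60, 3.42, 3.27, 3.66 and 3.33 in control and -1.06, 0.36, 0.51, 0.36 and -0.91 in KO cells, a 12.2-fold fall (-3.60 ± 0.43, adjusted p = 1.76e-06) with the same 2 KO arrays lowest. The chemokine receptor Ccr2, a defining gene of inflammatory monocytes, lay at 6.35, 6.62, 6.59, 6.57 and 6.84 in control and 1.20, 4.57, 4.08, 4.15 and 1.97 in KO cells (10.5-fold lower, -3.40 ± 0.53, adjusted p = 6.66e-05). All 5 KO arrays kept Ccr2 well above background, and its KO levels spread over more than 3 log2 units where those of control cells spread over less than 1.

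Others of the 20 largest falls were metabolic and secretory genes: Slc27a3, a fatty acid transport protein (-3.09 ± 0.25, adjusted p = 3.76e-09), the secreted ribonuclease Rnase6 (-2.86 ± 0.47), the lysosomal phospholipase-like Plbd1 (-2.84 ± 0.39) and Vat1l (-2.84 ± 0.73). Receptors and adhesion genes among them were the receptor-activity-modifying protein Ramp3 (-2.78 ± 0.44), the lysophosphatidylserine receptor P2ry10 (-2.75 ± 0.67), the asialoglycoprotein receptor subunit Asgr2 (-2.70 ± 0.61), the junctional molecule Jam2 (-2.68 ± 0.64), the desmosomal plakophilin Pkp3 (-2.80 ± 0.44) and the Fc receptor-like scavenger Fcrls (-2.66 ± 0.49, but 0.96 with the fixed slide term). Cdkn2b, the p15 inhibitor of cyclin-dependent kinases, fell as well (-3.07 ± 0.57), as did Strip2 (-3.07 ± 0.42), and the interferon-induced Ifi27l2a, the GTPases Gimap5 and Gimap1 and the transcription factor Stat4 are described with their families. The groups did not overlap for any of the 20, by the rule that chose them. Slc27a3, Strip2 and Jam2 were well above background on 3 of 5 KO arrays, Vat1l, P2ry10 and Fcrls on 4. Without KO arrays 1 and 5 together, the calls on P2ry10 (adjusted p = 0.0714), Asgr2 (0.0945), Vat1l (0.0559) and Gimap5 (0.0768) were lost.

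Ch25h, the enzyme that makes 25-hydroxycholesterol, rose most among the genes called. It lay at 2.01, 2.10, 2.12, 2.32 and 2.33 on control arrays 1 to 5 and at 6.75, 6.25, 6.10, 6.35 and 6.78 on KO arrays 1 to 5, a 19.3-fold rise (4.27 ± 0.48, adjusted p = 7.45e-07) with less than 1 log2 unit of spread in either group. The secreted phosphoprotein osteopontin, Spp1, lay at -2.37, -2.82, -2.84, -2.11 and -2.48 in control and 3.24, 0.18, 0.41, 0.07 and 2.67 in KO cells (14.3-fold, 3.84 ± 0.55, adjusted p = 1.97e-05). Here KO replicates 1 and 5 were the highest, more than 2 log2 units above the other KO arrays, which still lay above every control array. Fbxo32, a ubiquitin ligase subunit induced by FoxO factors, lay at 0.82, 1.22, 1.39, -0.42 and -0.18 in control and 4.45, 3.79, 3.95, 3.78 and 4.14 in KO cells (11-fold, 3.46 ± 0.35, adjusted p = 1.48e-07); control replicates 4 and 5 were lowest. The forkhead gene Foxf2 rose 10.6-fold (3.40 ± 0.39, adjusted p = 1.06e-06), from -3.30 to -2.92 in control to -0.11 to 0.85 in KO arrays.

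Several of the 20 largest rises encode secreted products. The activin subunit Inhba, a ligand of the TGF-beta family, lay at -1.30, -2.11, -2.18, -0.50 and -0.71 in control and 3.05, 1.16, 0.91, 1.03 and 2.65 in KO cells (3.12 ± 0.63, adjusted p = 0.00108), again with KO replicates 1 and 5 highest. Mfge8, a bridge between dying cells and phagocytes (3.05 ± 0.68), the follistatin-like Fstl1 (2.68 ± 0.48) and the serine protease Htra3 (3.05 ± 0.22) rose too. A second Htra3 probe did not show this rise (log2 difference -0.0028). The collagenase Mmp13 passed narrowly (2.65 ± 0.90, adjusted p = 0.0474), and its call was lost when any 1 of the 5 control arrays (adjusted p = 0.0522 to 0.0983) or KO replicate 1 (0.133) or 5 (0.131) was left out. Signalling genes were the kinase Sgk1 (3.17 ± 0.58), the Wnt receptor Fzd1 (2.59 ± 0.56, well above background on 3 of 5 control arrays), the GTPase-activating protein Arhgap24 (2.38 ± 0.33) and the focal adhesion protein Lims2 (2.47 ± 0.48). The platelet-type lectin receptor Clec1b (2.52 ± 0.29), the heme-transporter family member Flvcr2 (2.58 ± 0.28), the thyroid hormone deiodinase Dio2 (2.63 ± 0.63), Bex1 (3.47 ± 0.60), the repressor Zfp503 (2.83 ± 0.40), the adhesion molecule Clmp (2.69 ± 0.67) and Sh3bgrl2 (2.49 ± 0.34) completed the 20. Without both KO arrays 1 and 5, Dio2 (adjusted p = 0.0519) also missed the threshold.

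**Figure D1:**
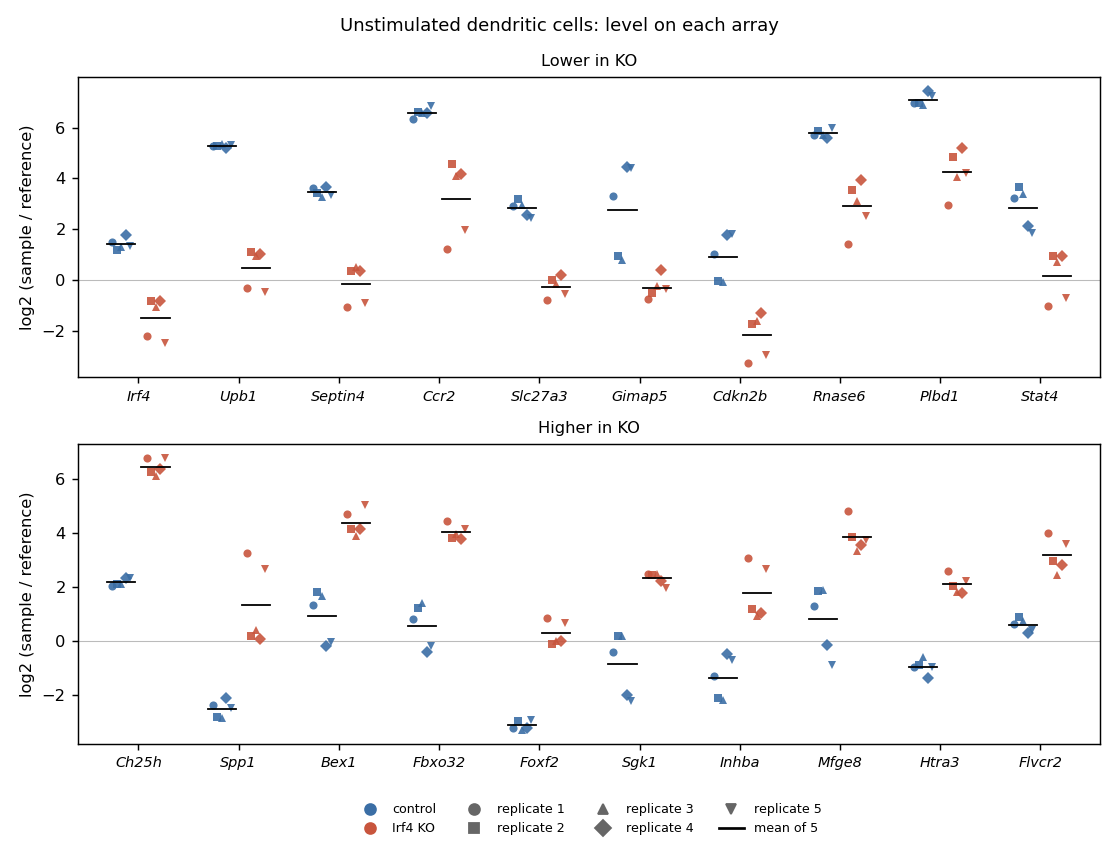
Level of Irf4 and 9 genes that fell and of 10 that rose, as log2 of sample over reference on each of the 10 unstimulated arrays; marker shape gives the replicate, colour the genotype and the black line the mean of 5. For Upb1, Septin4 and Ccr2 the KO circle (replicate 1) and lower triangle (replicate 5) sit lowest, and for Spp1 and Inhba the same 2 arrays sit highest.

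Sequences just upstream of some of these genes are printed because they hold the short motifs through which IRF proteins are known to bind. RefSeq promoter windows of build GRCm38.p6 were at hand for 9078 of the 11260 genes, and the 250 bases before each start site were searched on both strands for 4 strings of letters. An interferon-response-type repeat, GAAA and again GAAA after any 2 bases, was present in 30 of 637 genes called lower (4.71%), 25 of 644 called higher (3.88%) and 310 of all 9078 (3.41%). The ETS-IRF type string, GGAA and then GAAA after any 2 bases, was present in 16 genes called lower (2.51%), 15 called higher (2.33%) and 222 of all (2.45%). GAAA followed directly by TGANTCA, an AP-1-IRF type string, was found in 8 genes of all (0.0881%). GAAA followed by TGANTCA after any 4 bases was found in 9 (0.0991%), and 0 of these genes were called. The spaced AP-1-IRF element has TTTC in place of GAAA ahead of TGANTCA. That string was not searched, so no count is given for that element. The first pair of strings can overlap each other, and a match says only that the letters are there. Capitals mark the match in the stretches below, all written 5′ to 3′ along the gene's strand. The first 5 belong to genes that fell and the last pair to genes that rose.
Stat4 (chr1:52008118-52008177, plus strand): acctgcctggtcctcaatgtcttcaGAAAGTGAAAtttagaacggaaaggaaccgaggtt
Gbp2 (chr3:142620579-142620638, plus strand): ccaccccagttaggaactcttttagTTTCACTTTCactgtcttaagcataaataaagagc
Rnase6 (chr14:51128992-51129051, plus strand): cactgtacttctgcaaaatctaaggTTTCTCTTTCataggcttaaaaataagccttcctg
Asgr2 (chr11:70092547-70092606, plus strand): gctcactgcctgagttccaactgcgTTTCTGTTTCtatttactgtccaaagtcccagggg
Ifitm6 (chr7:141017057-141017116, minus strand): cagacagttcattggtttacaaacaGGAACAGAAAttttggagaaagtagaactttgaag
Spp1 (chr5:104434929-104434988, plus strand): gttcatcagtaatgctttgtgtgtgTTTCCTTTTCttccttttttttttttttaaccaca
Sgk1 (chr10:21882048-21882107, plus strand): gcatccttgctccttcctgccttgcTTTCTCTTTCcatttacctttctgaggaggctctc
The match ended 87 bases before the start site in Stat4, 49 in Gbp2, 37 in Rnase6 and 62 in Asgr2. It ended 189 bases before it in Ifitm6, 147 in Spp1 and 101 in Sgk1.

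MHC class II molecules carry peptides to helper T cells, and CIITA is the coactivator that switches their genes on. Ciita lay at 3.14, 3.38, 3.22, 2.61 and 2.25 on control arrays 1 to 5 and at 0.40, 1.42, 0.98, 1.28 and 0.90 on KO arrays 1 to 5. All KO arrays were below all control arrays, a 3.8-fold fall (-1.93 ± 0.33, adjusted p = 0.000189). H2-Aa, the alpha chain of the I-A molecule, was at 5.35, 5.43, 5.48, 5.09 and 5.25 in control and 2.68, 4.04, 3.94, 4.15 and 3.76 in KO cells (-1.61 ± 0.28, adjusted p = 0.000245), and the invariant chain Cd74 at 3.45, 3.70, 3.68, 2.92 and 2.39 and 0.61, 2.18, 1.93, 1.96 and 0.62 (-1.77 ± 0.35, adjusted p = 0.000945). KO replicate 1 was the lowest for these 3 genes. The I-E beta chain H2-Eb1 (-1.52 ± 0.28), the peptide exchange factors H2-DMa (-1.09 ± 0.18), H2-DMb1 (-0.63 ± 0.17) and H2-DMb2 (-1.22 ± 0.22), their inhibitor subunit H2-Oa (-1.76 ± 0.30) and the promoter-binding subunit Nfyb (-0.42 ± 0.09) fell too. In all 9 of 22 tested members of the class II list fell (background 7.13%), 1 rose, and the list's median difference was -0.22. With the fixed slide term the list had 1 lower and 7 higher, and with arrays scaled 4 lower and 1 higher. The call on H2-DMb1 was lost without KO replicate 1 (adjusted p = 0.0516). With the fixed slide term Ciita, Cd74, H2-DMa and H2-DMb1 changed sign and were not called (0.21, 0.97, 0.13 and 0.31).

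H2-Ab1, the partner chain of H2-Aa, depended on the probe. The brightest of 3 probes lay at 3.60, 3.67, 3.68, 3.40 and 3.46 in control and 3.09, 3.52, 3.62, 3.79 and 3.62 in KO cells and did not differ by the test (-0.036 ± 0.12, adjusted p = 0.883), while the other 2 gave log2 differences of -0.78 and -1.27. The member that rose was Ctsl, a lysosomal cysteine protease (1.80 ± 0.60, adjusted p = 0.0446), whose call was lost when control replicate 1, 4 or 5 (adjusted p = 0.0562, 0.128 and 0.148) or any 1 of KO replicates 1 to 4 (0.0782 to 0.0916) was left out. The other proteases and reductases of the pathway did not pass: Ctss 1.33 ± 0.61, Ctsb 0.61 ± 0.68, Ctsd 1.53 ± 0.60, Ctsz 0.12 ± 0.48, Lgmn -0.85 ± 0.44 (called higher with the fixed slide term, 2.60) and Ifi30 0.13 ± 0.27. Nor did the class II ubiquitin ligase Marchf1 (0.03 ± 0.33, called lower with the fixed slide term, -1.39) or the promoter-binding subunits Nfya (-0.17 ± 0.11), Nfyc (0.0097 ± 0.092), Rfxank (-0.26 ± 0.21) and Rfxap (-0.19 ± 0.13). With the scanner software's own log ratio H2-Aa was not lower (0.15).

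Of 17 tested genes of class I presentation 3 fell (17.6% against 7.13% over all genes), 0 rose, and the median was 0.042. The balance turned with the fixed slide term, to 1 lower and 10 higher. The 3 were the interferon-inducible proteasome subunits Psmb8 and Psmb9 and the proteasome activator Psme1. Psmb8 lay at 2.49, 2.52, 2.45, 2.58 and 2.44 in control and 0.99, 1.59, 1.61, 1.70 and 0.87 in KO cells (-1.14 ± 0.19, adjusted p = 0.000118), with no overlap. Psmb9 fell by a log2 difference of -1.42 ± 0.28 and Psme1 of -0.998 ± 0.19. The heavy chain H2-D1 (0.12 ± 0.61), the light chain B2m (0.15 ± 0.55) and the peptide transporter Tap1 (-1.04 ± 0.41) did not pass; Tap1 was called higher with the fixed slide term (2.18) and lower with arrays scaled (-1.10).

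Mature migratory dendritic cells raise CCR7, the receptor that leads them to lymph nodes, together with chemokines, cytoskeletal genes and costimulatory ligands. Of 36 tested genes of that programme 20 fell and 1 rose, with a median difference of -1.06, against -0.0382 over all genes. Without both KO arrays 1 and 5, 10 of the 36 were called lower. With the fixed slide term the balance of calls turned, to 4 lower and 9 higher, and with arrays scaled 11 were called lower. The chemokine Ccl22, which attracts CCR4-bearing T cells, lay at 3.81, 3.76, 3.81, 4.10 and 3.53 in control and 0.23, 2.53, 2.41, 2.09 and 0.15 in KO cells (4.98-fold lower, -2.32 ± 0.37, adjusted p = 8.03e-05; 3 of 5 KO arrays well above background). Ccr7 lay at 4.77, 4.78, 4.83, 4.66 and 4.84 in control and 1.39, 4.34, 4.32, 4.46 and 0.40 in KO cells (-1.79 ± 0.51, adjusted p = 0.018). The 3 other KO arrays lay within 0.5 of the lowest control array for Ccr7, while KO replicates 1 and 5 were more than 3 log2 units below it. Its call was lost without KO replicate 1 (-1.40, adjusted p = 0.0825), without KO replicate 5 (-1.15, 0.0639) and without both (-0.40, 0.331). Cd83, counted with the costimulatory ligands and known to stabilise MHC class II at the surface, lay at 6.00, 6.05, 6.05, 6.04 and 6.13 in control and 2.80, 5.24, 5.13, 5.60 and 3.69 in KO cells (-1.56 ± 0.35, adjusted p = 0.00247). Its call was kept without both (-0.73, adjusted p = 0.0468), but with the scanner software's log ratio the fall was gone (0.039).

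Other members of the mature programme that fell were the tetraspanin Tspan3 (-1.88 ± 0.25), the signalling adaptor Traf1 (-2.25 ± 0.38), the calcium channel subunit Cacnb3 (-2.12 ± 0.39), the chemokine Ccl17 (-1.35 ± 0.34) and the actin-bundling Fscn1 (-1.40 ± 0.45, adjusted p = 0.0348). The call on Fscn1 was lost without control replicate 1, 2 or 3 (adjusted p = 0.074, 0.0819 and 0.076) or KO replicate 1 or 5 (0.0941 and 0.0702). Among chemokines 6 of 26 fell and 1 rose (3 lower without both KO arrays 1 and 5). Besides Ccl22 and Ccl17 these included the eotaxin-type Ccl24 (-2.11 ± 0.46), the membrane-anchored Cx3cl1 (-1.95 ± 0.44) and Ccl5 (-2.69 ± 0.80, adjusted p = 0.0223), and the one that rose was Cxcl14 (1.31 ± 0.29). Ccl5 ran from -1.84 to 3.13 on KO arrays and its call was lost without KO replicate 1 (adjusted p = 0.101) or 5 (0.0882). With the fixed slide term Fscn1 was called higher (2.20), and Tspan3, Cacnb3, Cx3cl1 and Ccl5 changed sign without a call. Of 21 chemoattractant receptors Ccr2, Ccr7 and the oxysterol-sensing Gpr183 (-1.22 ± 0.31) fell and 0 rose, and without both KO arrays 1 of the 21 was called lower.

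Ligands and receptors listed for tuning the T cell response fell in 8 of 20 cases and rose in 0, with a median of -0.56. With arrays scaled 2 were called lower, with backgrounds as scanned 4, and with the fixed slide term 5 lower and 5 higher. Cd86, a ligand of CD28, lay at 2.82, 2.31, 2.52, 3.48 and 4.09 in control and 0.31, 0.92, 1.06, 1.61 and 0.78 in KO cells (4.32-fold lower, -2.11 ± 0.47, adjusted p = 0.00247). The groups were separate, with control replicates 4 and 5 highest. The adhesion ligand Icam1 lay at 2.45, 2.28, 2.22, 2.87 and 2.37 in control and 0.95, 1.18, 0.84, 0.92 and 1.05 in KO cells (-1.45 ± 0.19, adjusted p = 9.71e-06), and the KO arrays agreed within 0.4. Tnfrsf9, the 4-1BB receptor, lay at 2.86, 2.57, 2.76, 3.12 and 3.65 and -0.53, 1.26, 1.20, 2.04 and 0.23 (-2.15 ± 0.43, adjusted p = 0.00104), although a second, dimmer probe differed by 0.047. The OX40 ligand Tnfsf4 (-1.999 ± 0.42, but 0.26 with the scanner software's log ratio) and the SLAM family receptor Cd244a (-2.02 ± 0.44) fell too. Cd80, the other CD28 ligand (-0.73 ± 0.35), and Cd274, the PD-1 ligand PD-L1 (0.31 ± 0.19), did not pass.

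Genes of the NF-kB pathway, which relays receptor signals to maturation genes, fell in 8 of 28 cases and rose in 1 (median -0.36); with the fixed slide term 3 were called lower and 13 higher. Map3k14, the kinase NIK at the head of the non-canonical branch, lay at 1.34, 1.33, 1.67, 1.25 and 1.29 in control and -1.64, -0.35, -0.39, -0.23 and -1.07 in KO cells, a 4.32-fold fall (-2.11 ± 0.25, adjusted p = 1.83e-06). Relb, the subunit that this branch releases, lay at 0.95, 1.26, 1.33, 0.56 and 0.21 and -0.45, -0.017, -0.045, -0.19 and -0.40 (-1.08 ± 0.29, adjusted p = 0.0117), and the groups did not overlap for either gene. The inhibitor Nfkbie (-1.29 ± 0.21) and the A20-binding Tnip3 (-1.26 ± 0.28) fell. The canonical subunit Rela did not pass (0.20 ± 0.45). Relb and Tnip3 changed sign with the fixed slide term (1.41 and 0.63, neither called).

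In the JAK-STAT families 7 of 23 tested genes fell and 0 rose, against 2 lower and 10 higher with the fixed slide term and 3 lower with arrays scaled. Stat4, which relays interleukin 12, lay at 3.22, 3.67, 3.38, 2.12 and 1.84 in control and -1.03, 0.92, 0.69, 0.95 and -0.72 in KO cells (6.42-fold lower, -2.68 ± 0.47, adjusted p = 0.000246; 3 of 5 KO arrays well above background). Jak2, the kinase of the GM-CSF receptor, lay at 1.70, 1.88, 2.05, 1.67 and 1.39 and -0.73, 0.14, 0.17, 0.18 and -0.50 (-1.89 ± 0.27, adjusted p = 2.62e-05). Socs2, a feedback inhibitor induced by STAT5, lay at 2.60, 2.53, 2.54, 2.91 and 2.46 and 1.58, 1.59, 1.75, 1.53 and 1.45 (-1.03 ± 0.18, adjusted p = 0.000185), and the highest KO array lay below the lowest control array. Stat5a (-1.05 ± 0.24), Socs1 (-0.92 ± 0.25) and Cish (-0.46 ± 0.13) fell as well, while Stat3 (0.27 ± 0.54) did not pass. The call on Cish was lost without control replicate 4 (adjusted p = 0.0521), and with the fixed slide term Stat4, Stat5a and Socs1 changed sign and were not called (0.39, 0.52 and 0.32). The GM-CSF receptor chains Csf2ra (0.45 ± 0.22) and Csf2rb (0.10 ± 0.11) did not pass.

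The IRF family has 9 members on the array, all tested. Besides Irf4, 2 fell and 0 rose. Irf5, which drives inflammatory cytokine genes, lay at 4.05, 3.84, 3.79, 3.89 and 3.52 in control and 1.21, 2.73, 2.43, 2.48 and 1.18 in KO cells, a 3.5-fold fall (-1.81 ± 0.24, adjusted p = 8.16e-06) with KO replicates 1 and 5 lowest. Irf9, the DNA-binding part of the interferon-activated complex ISGF3, lay at 1.70, 1.86, 1.72, 1.52 and 1.29 and 0.022, 1.18, 1.13, 1.06 and 0.11 (-0.92 ± 0.24, adjusted p = 0.00904); its call was lost without both KO arrays 1 and 5 (adjusted p = 0.206). Irf8, the close relative of Irf4 that shares its partners, lay at 3.15, 3.42, 3.43, 2.67 and 2.50 and 3.03, 3.54, 3.55, 3.55 and 2.70, with overlap (0.24 ± 0.28, adjusted p = 0.612). Irf1 (-0.13 ± 0.52), Irf2 (-0.076 ± 0.41), Irf3 (-0.066 ± 0.10) and Irf7 (-0.14 ± 0.80) did not pass either. With the fixed slide term Irf1, Irf2 and Irf7 turned and were called higher (4.00, 3.18 and 1.92), and 4 members were in all.

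Of 24 tested partners and target regulators of IRF4, 1 fell and 1 rose, a share near the background of 7.13 and 6.96%; with the fixed slide term 3 were called lower and 14 higher, and with replicates 4 and 5 only 5 higher. Spib, an ETS factor, fell (-0.96 ± 0.26, adjusted p = 0.0116, 3 of 5 KO arrays well above background). Jun rose (1.04 ± 0.32, adjusted p = 0.0275), a call lost without control replicate 4 or 5 (adjusted p = 0.0874 and 0.0903) or KO replicate 1 or 5 (0.0861 and 0.0525). Spi1, which encodes PU.1 (0.078 ± 0.24), Batf (-0.61 ± 0.36) and Batf3 (-0.66 ± 0.28) did not pass. Among 37 other myeloid transcription factors 2 fell and 5 rose (8 higher without control replicate 3). The vitamin D receptor Vdr lay at 2.16, 2.31, 2.39, 1.88 and 1.58 in control and -0.59, 0.47, 0.61, 0.43 and -0.82 in KO cells (4.12-fold lower, -2.04 ± 0.24, adjusted p = 1.76e-06). Runx2, known from bone and plasmacytoid dendritic cells, lay at -1.63, -1.41, -1.34, -2.08 and -2.05 and -0.075, -0.22, -0.34, -0.33 and -0.79 (1.35 ± 0.26, adjusted p = 0.000672). Bhlhe41 (1.39 ± 0.23), Runx1 (1.23 ± 0.28) and the heme-sensing repressor Bach1 (0.86 ± 0.22) rose beside Foxf2. Cebpa (1.32 ± 0.49) and Cebpb (2.16 ± 0.77) did not pass.

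**Figure D2:**
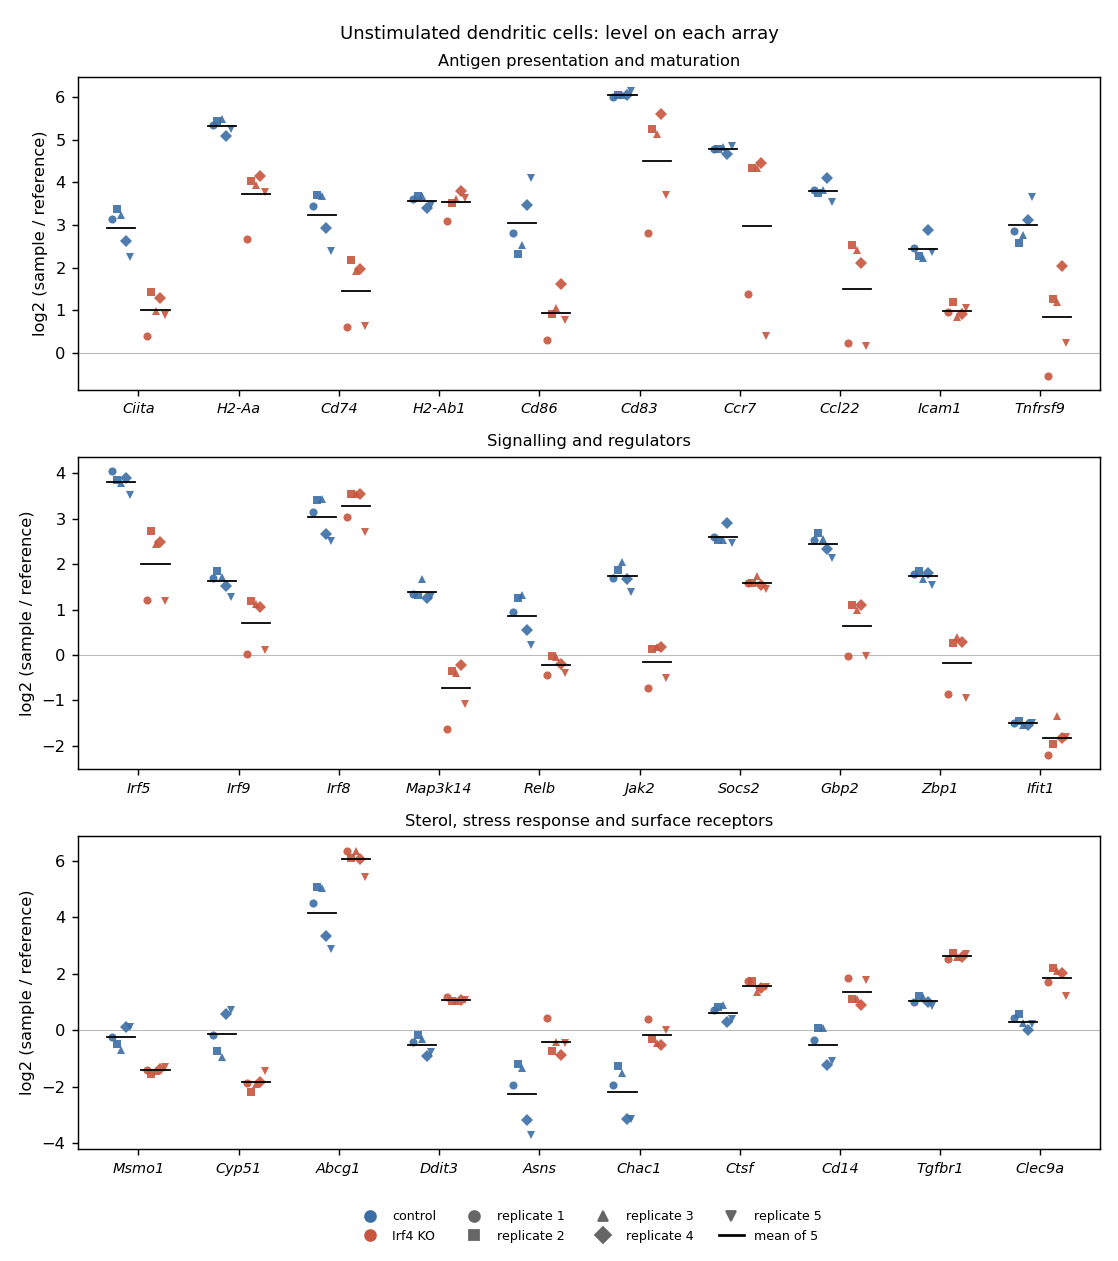
Level of 30 genes on each of the 10 unstimulated arrays (log2 of sample over reference), grouped into antigen presentation and maturation, signalling and regulators, and sterol, stress response and surface receptor genes; marker shape gives the replicate, colour the genotype and the black line the mean of 5. KO arrays 1 and 5 lie far below the other KO arrays for Ccr7 and Ccl22, whereas for Socs2, Msmo1, Ddit3 and Tgfbr1 the 5 KO arrays lie close together.

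Interferon-stimulated genes encode antiviral proteins that ISGF3 and IRF factors switch on. Of 47 tested, 5 fell and 0 rose (10.6% against 7.13%), 39 had a negative difference, and the median was -0.35. The 2 genotypes were free of overlap for 14 of the 47 with KO cells lower, and for 0 with KO cells higher. Over all genes tested such separation held for 9.48 and 8.73%. The direction of the calls turned with the fixed slide term, to 1 lower and 32 higher, among the latter Ifit1 (2.94) and Isg15 (1.01). Ifi27l2a lay at 1.78, 1.89, 1.71, 1.85 and 2.78 in control and -3.36, -1.25, -0.94, -0.37 and -2.55 in KO cells (13-fold lower, -3.70 ± 0.73, adjusted p = 0.00078), and control replicate 5 stood above the other 4. The GTPase Gbp2 lay at 2.52, 2.68, 2.55, 2.32 and 2.13 and -0.025, 1.10, 0.99, 1.11 and -0.023 (-1.81 ± 0.33, adjusted p = 0.0004). Ifitm6 (-2.13 ± 0.41, 3 of 5 KO arrays well above background) and Ifitm1 (-1.30 ± 0.29), both membrane proteins that hinder viral entry, fell too. Ifit1, a classical target, was already low and overlapped, with -1.49, -1.44, -1.55, -1.54 and -1.49 in control and -2.20, -1.96, -1.33, -1.83 and -1.80 in KO cells (-0.33 ± 1.00, 2 of 5 KO arrays well above background), and Isg15 did not pass (-0.42 ± 0.81). Zbp1, an interferon-induced sensor of nucleic acid in Z form, lay at 1.78, 1.85, 1.68, 1.81 and 1.54 and -0.86, 0.25, 0.39, 0.28 and -0.94 (3.75-fold lower, -1.91 ± 0.35, adjusted p = 0.000391), the 1 of 29 pattern recognition genes that fell.

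GIMAP proteins are small GTPases of the immune system, known for lymphocyte survival and encoded in 1 cluster. Of 8 genes on the list 4 were tested. Gimap1 lay at 0.76, -0.21, -0.04, 1.64 and 1.20 in control and -3.10, -2.05, -2.04, -1.94 and -2.71 in KO cells (8.23-fold lower, -3.04 ± 0.43, adjusted p = 1.84e-05). Gimap5 lay at 3.30, 0.93, 0.76, 4.43 and 4.41 and -0.76, -0.52, -0.24, 0.37 and -0.38 (-3.07 ± 0.84, adjusted p = 0.0125, 3 of 5 KO arrays well above background). For both genes control replicates 4 and 5 were highest and control replicates 2 and 3 lowest, by 1 to 4 log2 units, and still no KO array reached a control array. The call on Gimap5 was lost without control replicate 4 (adjusted p = 0.0503). Gimap9 (-1.86 ± 0.66, adjusted p = 0.0611) and Gimap6 (-1.65 ± 0.68, adjusted p = 0.109) did not pass.

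Cholesterol synthesis had a larger share of members that fell than any other list described here: 16 of 26 fell, 1 rose, and the median was -0.86. Without both KO arrays 1 and 5, 15 of the list were called lower. The list's mean level lay at -0.31 to 0.16 on control and -0.83 to -0.74 on KO arrays. Msmo1, the sterol methyl oxidase, lay at -0.23, -0.49, -0.72, 0.11 and 0.12 in control and -1.42, -1.55, -1.44, -1.38 and -1.31 in KO cells (2.26-fold lower, -1.18 ± 0.22, adjusted p = 0.000538). Cyp51, the lanosterol demethylase, lay at -0.19, -0.74, -0.96, 0.56 and 0.71 and -1.88, -2.21, -1.91, -1.84 and -1.44 (-1.73 ± 0.32, adjusted p = 0.000414). Neither gene had overlapping groups, and the KO levels spread less than the control levels for both. The enzyme Hsd17b7 (-1.11 ± 0.20) and the carrier Stard4 (-1.82 ± 0.34) fell as well. The entry enzyme Hmgcs1 (-0.54 ± 0.19, adjusted p = 0.0518) did not pass. The gene that rose was Insig2 (0.54 ± 0.10), which holds the sterol sensor in the endoplasmic reticulum.

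Genes on the oxysterol and lipid efflux side moved the other way, with 7 of 20 higher, 0 lower and a median of 0.59; 4 were called higher without control replicate 4 or 5, or without both KO arrays 1 and 5. Ch25h led them. The cholesterol exporter Abcg1 lay at 4.51, 5.06, 5.02, 3.32 and 2.86 in control and 6.35, 6.11, 6.33, 6.05 and 5.42 in KO cells (3.73-fold higher, 1.90 ± 0.46, adjusted p = 0.00553), control replicates 4 and 5 being the lowest. Mylip, a ubiquitin ligase induced by LXR (1.37 ± 0.31), the oxysterol-forming Cyp27a1 (0.69 ± 0.18) and the exporter Abca1 (2.25 ± 0.65, adjusted p = 0.0187) rose. The call on Abca1 was lost without control replicate 4 (adjusted p = 0.0687) or 5 (0.0635). The receptor LXR alpha itself, Nr1h3, did not pass (0.71 ± 0.30, adjusted p = 0.121). In fatty acid synthesis 3 of 17 fell, among them the acyl-CoA synthetase Acsl3 (-0.69 ± 0.16), and 1 rose.

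Of 33 genes of the integrated stress response, through which cells answer amino acid shortage and endoplasmic reticulum stress, 10 rose and 0 fell (30.3% against 6.96%; median 0.42), and 6 were called higher without both KO arrays 1 and 5. Ddit3, the transcription factor CHOP, lay at -0.44, -0.18, -0.30, -0.92 and -0.77 in control and 1.16, 1.03, 1.03, 1.06 and 1.08 in KO cells (3.02-fold higher, 1.59 ± 0.23, adjusted p = 2.02e-05). Its 5 KO values agreed within 0.2. Chac1, which degrades glutathione, lay at -1.94, -1.28, -1.52, -3.15 and -3.15 and 0.40, -0.33, -0.46, -0.55 and 0.0097 (2.03 ± 0.41, adjusted p = 0.00111). Asns, which makes asparagine, lay at -1.95, -1.20, -1.33, -3.17 and -3.71 and 0.42, -0.74, -0.43, -0.87 and -0.47 (1.85 ± 0.51, adjusted p = 0.0125), and its call was lost without control replicate 5 (adjusted p = 0.054). For Chac1 and Asns control replicates 4 and 5 were more than 1 log2 unit below the other control arrays. The central factor Atf4 (0.86 ± 0.14) and the serine synthesis enzyme Phgdh (1.39 ± 0.28) rose too. Of 20 FoxO and glucocorticoid target genes 4 rose, Fbxo32, Sgk1, Tsc22d3 (0.92 ± 0.19) and Gadd45a (1.11 ± 0.25), and Sesn3 fell (-0.92 ± 0.20). A second Tsc22d3 probe, also well above background on all 5 arrays of each genotype, differed by 0.16.

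Lysosomal genes rose in 11 of 52 cases and fell in 0; 48 had a positive difference, with a median of 0.41. Without control replicate 5, or without both KO arrays 1 and 5, 7 were called higher. The cathepsin Ctsf lay at 0.72, 0.82, 0.88, 0.30 and 0.38 in control and 1.75, 1.75, 1.33, 1.5 and 1.52 in KO cells (0.95 ± 0.13, adjusted p = 9.71e-06), with no overlap. The proton pump subunits Atp6v1a (0.82 ± 0.16), Atp6v1c1 (1.20 ± 0.28) and Atp6v0d2 (0.65 ± 0.14) rose, although Atp6v1c1 turned with the fixed slide term (-1.03), and the membrane protein Lamp1 did not pass (0.69 ± 0.49). Energy genes moved the other way: 6 of 22 glycolytic genes fell and 0 rose, and 11 of 64 respiratory chain genes fell and 0 rose (medians -0.30 and -0.30). Leaving out 1 of control replicates 1, 4 and 5 or of KO replicates 1, 2 and 3 left 6 or 7 of the respiratory chain genes called, and leaving out both KO arrays 1 and 5 left 6 of these and 3 of the glycolytic genes. Examples were the aldolase Aldoc (-1.65 ± 0.37), the hexokinase Hk1 (-0.72 ± 0.19, but 0.35 with the fixed slide term), Pgk1 (-0.89 ± 0.16) and the phosphofructokinase Pfkp (-0.93 ± 0.15), for which a second probe gave 0.0071. Hk2 did not pass (0.15 ± 0.59). In the cell cycle 3 of 49 genes fell, the cyclins Ccne1 (-0.80 ± 0.15), Ccnd3 (-0.66 ± 0.16, but 0.65 with the fixed slide term) and Ccnd2 (-1.55 ± 0.41), and 0 rose, a share of 6.12% against 7.13%. The mean level of this list lay at -1.20, -1.70, -1.77, -0.75 and -0.86 on control arrays 1 to 5. On KO arrays 1 to 5 it lay at -0.97, -2.03, -1.83, -1.86 and -0.67. Control replicates 4 and 5 and KO replicates 1 and 5 were thus highest within their genotypes.

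Among 33 tested cytokines and growth factors 4 rose and 2 fell (12.1 and 6.06%, against 6.96 and 7.13% over all genes). Without both KO arrays 1 and 5, 2 were called higher. Il1a lay at 1.77, 1.31, 1.42, 2.46 and 1.87 in control and 4.28, 3.41, 2.98, 3.01 and 4.44 in KO cells (1.86 ± 0.60, adjusted p = 0.0373), a narrow call that was lost on leaving out control replicate 1, 2, 3 or 5 (adjusted p = 0.0611 to 0.0738) or KO replicate 1, 2 or 5 (0.053 to 0.103). Pdgfa rose beside Spp1 and Inhba (1.43 ± 0.34). The B cell survival factor Tnfsf13b (-1.13 ± 0.23) and the interleukin 27 subunit Ebi3 (-1.07 ± 0.25, but 0.11 with the fixed slide term) fell. In 36 cytokine receptor genes 6 rose and 2 fell, and 2 or 3 were called higher when control replicate 4 or 5 or KO replicate 1 or 5 was left out. Tgfbr1, the signalling chain of the TGF-beta receptor, lay at 1.00, 1.22, 1.17, 1.00 and 0.84 in control and 2.53, 2.71, 2.58, 2.60 and 2.70 in KO cells (2.99-fold higher, 1.58 ± 0.18, adjusted p = 9.45e-07), with narrow spread in both groups. Il6st, the shared gp130 chain, rose (1.62 ± 0.23) and Il21r fell (-1.10 ± 0.28).

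Of 25 scavenger and Fc receptor genes 4 rose and 1 fell, of 15 C-type lectin and sialic acid-binding receptors 2 rose and 2 fell, and of 29 pattern recognition genes 1 rose and 1 fell. Over all genes 6.96% rose and 7.13% fell. The shares were 16 and 4% in the first list, 13.3% each way in the second and 3.45% each way in the third. The scavenger receptor Marco lay at 1.75, 1.44, 1.57, 2.25 and 1.99 in control and 5.08, 4.05, 2.89, 4.05 and 4.37 in KO cells (4.87-fold higher, 2.28 ± 0.43, adjusted p = 0.00055), and Mfge8, Colec12 (0.84 ± 0.19) and Trem2 (0.93 ± 0.24) were the other scavenger genes that rose. The LPS co-receptor Cd14 lay at -0.34, 0.072, 0.062, -1.24 and -1.11 and 1.86, 1.09, 1.11, 0.88 and 1.77 (1.85 ± 0.62, adjusted p = 0.046), a call lost on leaving out any 1 of control replicates 1, 4 and 5 or of the 5 KO arrays (adjusted p = 0.0542 to 0.116). Tlr4, the LPS receptor, did not pass (0.66 ± 0.25), and was called lower with the fixed slide term (-1.22). Clec9a, the dead-cell receptor of type 1 conventional dendritic cells, lay at 0.43, 0.57, 0.25, 0.017 and 0.22 in control, where no array was well above background, and at 1.69, 2.20, 2.08, 2.03 and 1.22 in KO cells, where all 5 were. Clec9a was therefore at least 2.76-fold higher, a bound set against the lowest signal well above background on each array (adjusted p = 1.45e-07). Clec1b rose with it, and the sialic acid-binding Siglecg fell (-0.81 ± 0.18).

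In genes of alternative activation 5 of 27 fell and 1 rose (18.5 and 3.7%, against 7.13 and 6.96% over all genes). Without control replicate 4, 3 were called lower. Alox15, the 12/15-lipoxygenase induced by interleukin 4, lay at 2.17, 1.96, 1.95, 2.78 and 1.98 in control and 0.24, 0.13, 0.22, -0.092 and -0.26 in KO cells, where no array was well above background, so it was at least 3.96-fold lower (adjusted p = 8.2e-05). The others that fell were Ccl24, Socs1, Cish and Pdcd1lg2, the PD-1 ligand PD-L2 (-0.78 ± 0.26, adjusted p = 0.0443). The call on Pdcd1lg2 was lost without control replicate 1, 2, 4 or 5 (adjusted p = 0.0554 to 0.0981) or KO replicate 1, 3 or 5 (0.0533 to 0.158). The chitinase-like Chil3 rose, from 8.03, 8.28, 8.42, 7.64 and 7.62 to 8.40, 9.01, 8.87, 9.12 and 8.85 (0.85 ± 0.17, adjusted p = 0.000962), with overlap, and with Cy5 alone the sign turned (-0.18). Arginase, Arg1 (0.30 ± 0.15), and Retnla (-1.01 ± 0.39) did not pass. The gelatinase Mmp9 fell (-1.45 ± 0.23).

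Gene families outside these pathways were mixed. Over all genes 7.13% fell and 6.96% rose. Solute carriers, the largest family described, had 17 lower and 24 higher of 218 (7.8 and 11%). Without KO replicate 1, 9 were called lower, and without control replicate 1 or 4 or KO replicate 5, 11 were. The hexose transporter Slc2a6 (-1.53 ± 0.24) and the riboflavin transporter Slc52a3 (-1.45 ± 0.27) fell beside Slc27a3, and Slc35e4 (1.49 ± 0.25), the betaine transporter Slc6a12 (1.20 ± 0.21) and the lysosomal sialic acid exporter Slc17a5 (1.14 ± 0.20) rose. Tetraspanins split, 4 lower and 5 higher of 23 (3 higher without control replicate 4 or 5 or KO replicate 1), with Tspan33 the largest fall (-2.23 ± 0.39) and Cd9 the largest rise (1.51 ± 0.26). Septins did too: Septin4 and Septin5 (-0.52 ± 0.13) fell, Septin8 rose (1.24 ± 0.25), and 3 of 8 fell in all. Of 30 serpins and cystatins 6 fell and 1 rose, among them Cst3, the secreted cystatin C (-1.28 ± 0.25, but 0.26 with the fixed slide term), and Cst7, a cystatin of lysosomes (-1.69 ± 0.41). Serpinb10, not well above background on any KO array, was at least 1.71-fold lower.

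**Figure D3:**
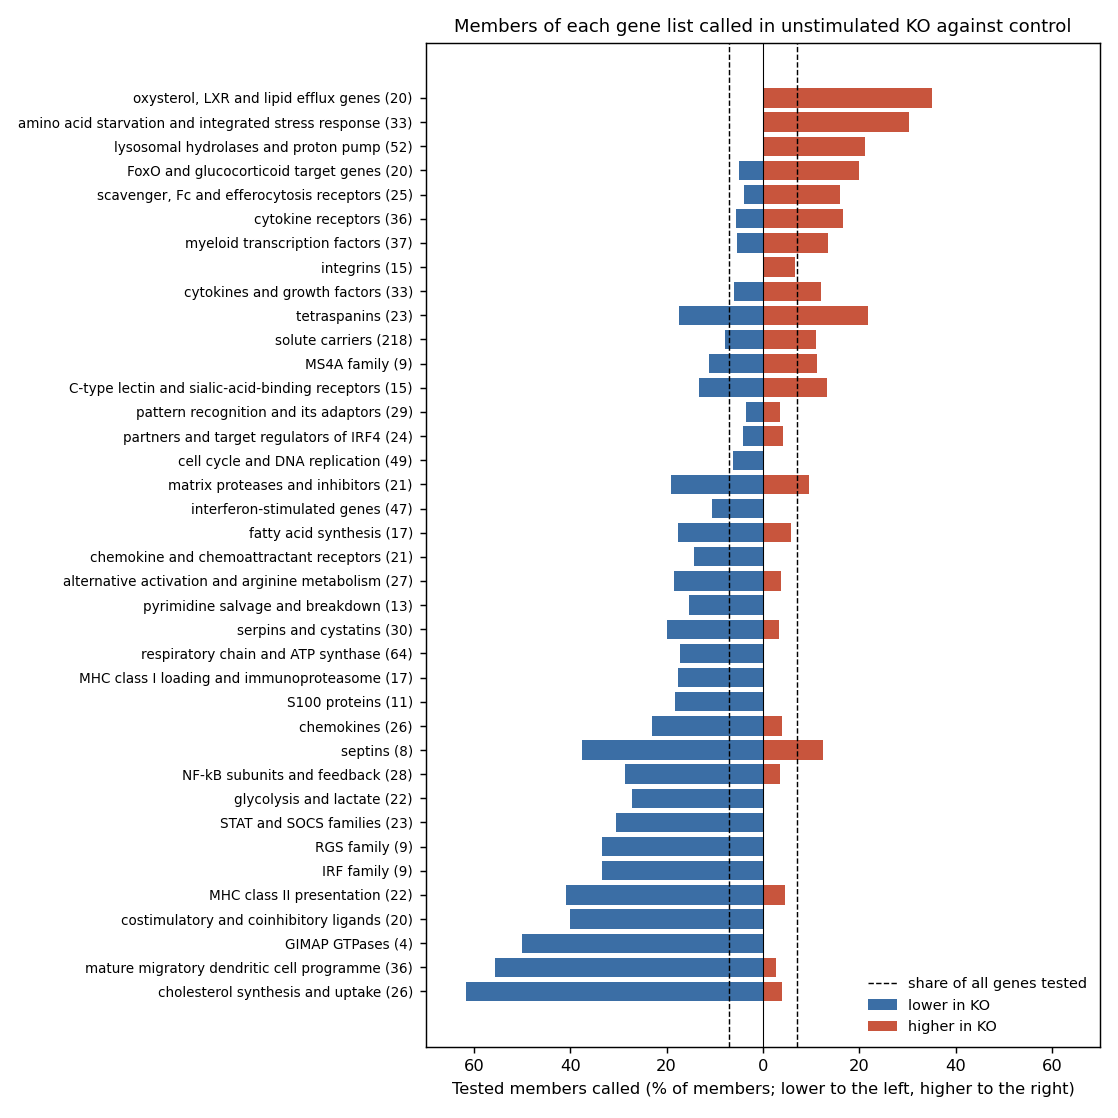
Share of tested members of 38 gene lists called lower (blue, to the left) or higher (red, to the right) in unstimulated KO cells, in percent, with the number of tested members in parentheses; dashed lines mark 7.13 and 6.96%, the shares over all 11260 genes. Cholesterol synthesis, the mature dendritic cell programme, GIMAP, costimulation and MHC class II reach farthest to the left, and oxysterol, stress response and lysosomal genes lean to the right.

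Other list counts also moved under the fixed slide term, under which 26.2% of all genes were called lower and 24.4% higher. Calls lower and higher were 19 and 2 for cholesterol synthesis, 44 and 2 for the respiratory chain and 2 and 4 for glycolysis. Lysosomal genes had 2 lower and 28 higher, oxysterol and lipid efflux genes 2 lower and 14 higher and the integrated stress response 0 lower and 15 higher. Cytokine receptors had 2 lower and 18 higher, pattern recognition genes 2 lower and 15 higher, other myeloid transcription factors 1 lower and 23 higher and genes of alternative activation 5 lower and 8 higher. Among cell type markers the dendritic cell list had 2 lower and 8 higher, the macrophage list 0 lower and 15 higher and the monocyte list 6 lower and 4 higher. With arrays scaled 1 gene of alternative activation was called lower, 3 cytokine receptors were called higher and 10 solute carriers lower, while cholesterol synthesis had 16 lower, as without scaling.

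The labelled cell type was checked against its markers. Over all genes tested 7.13% fell and 6.96% rose, and 1 or 2 calls in lists this short are not far from those shares. The CD11c gene Itgax, used for the bead selection, lay at 3.69 to 4.23 on control and 4.12 to 4.66 on KO arrays (0.40 ± 0.16, adjusted p = 0.101), so neither group lacked it. Of 17 tested dendritic cell markers 3 fell (5 without control replicate 3) and 1 rose. They were H2-Aa, Cd226 and Dpp4, and Clec9a. The peptidase Dpp4, known as CD26, lay at 0.93, 0.80, 0.92, 1.17 and 0.98 in control and -1.90, -1.26, -1.36, -0.81 and -1.64 in KO cells (-2.36 ± 0.41, adjusted p = 0.000212, 4 of 5 KO arrays well above background), and Cd226 fell (-1.5 ± 0.25, 3 of 5 KO arrays). The lineage factor Zbtb46 lay at 1.04, 0.71, 0.62, 1.33 and 1.13 and 0.23, 0.22, 0.28, 0.56 and 0.22, without overlap, but did not pass the test (-0.66 ± 0.24, adjusted p = 0.0631). Of 20 macrophage markers 3 rose and 0 fell, Marco, Cd14 and Trem2, while Adgre1, which encodes F4/80 (1.25 ± 0.60), and Mertk (1.23 ± 0.48) did not pass. The mean of the macrophage list was 1.02 to 2.34 on control and 1.53 to 2.66 on KO arrays, and it was control replicates 4 and 5, near 1, that lay lowest.

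Monocyte markers had 2 of 14 lower and 1 higher (14.3 and 7.14%, against 7.13 and 6.96% over all genes). Their mean ran from 1.00 to 1.30 on control and 0.0073 to 0.70 on KO arrays, without overlap. The 2 were Ccr2 and Ms4a4c, the latter not well above background on any KO array; the 1 was Chil3. Of 13 neutrophil markers 1 fell and 0 rose (list means 1.41 to 2.40 and 0.86 to 1.55). Of 12 plasmacytoid markers Spib fell and 2 rose, Runx2 among them (0.12 to 0.53 and 0.23 to 0.58). Of 9 mast cell, basophil and eosinophil markers Siglecf fell (-1.68 ± 0.40, but 0.48 with the scanner software's log ratio; list means 1.29 to 1.54 and 0.92 to 1.15), and of 9 erythroid and megakaryocyte markers 1 fell (1.03 to 1.28 and 0.79 to 1.11). Of 8 B cell markers 1 fell and Cd22 rose (1.08 ± 0.28; -0.13 to 0.10 and -0.18 to 0.12), and of 8 T and NK cell markers 1 rose (-0.17 to 0.16 and -0.13 to 0.15). Of 11 stromal and endothelial markers 1 fell (-3.25 to -2.80 and -3.17 to -2.94), and of 7 progenitor markers 0 fell and 0 rose (-0.79 to -0.53 and -0.70 to -0.40). Immediate-early, heat shock and hypoxia genes had 2 of 23 lower and 1 higher. The part of these cell types in the differences above was not tested.

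**Figure D4:**
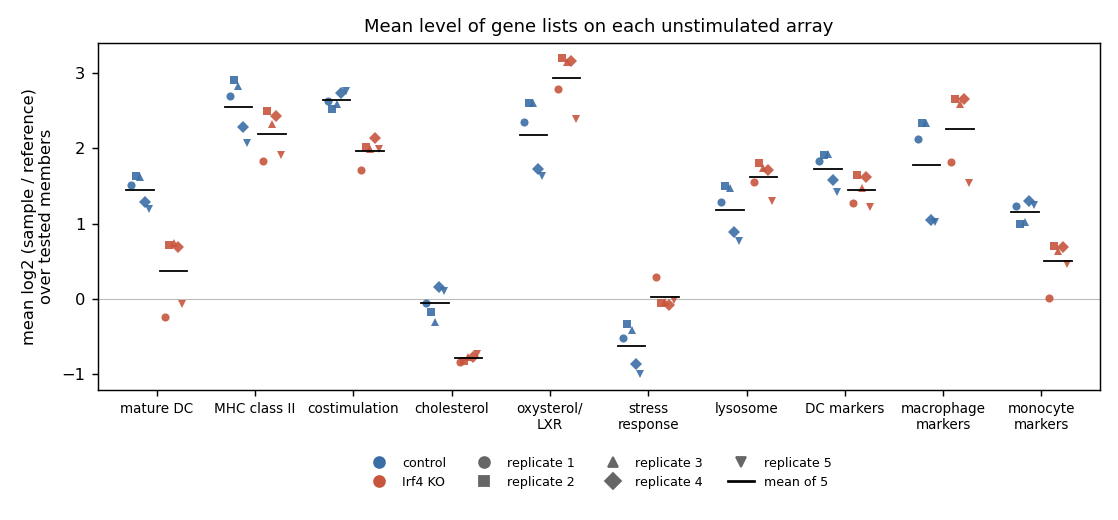
Mean log2 level over the tested members of 10 gene lists on each of the 10 unstimulated arrays, with marker shape for the replicate, colour for the genotype and a black line for the mean of 5. The control and KO arrays are separate for the mature dendritic cell, costimulation, cholesterol, stress response and monocyte lists; macrophage and dendritic cell markers overlap.

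The same contrast in LPS-treated cells used other arrays, so it shows how far the baseline differences were present there. Of the 803 genes lower at baseline, 350 (43.6%) were also called lower after 6 h of LPS and 373 (46.5%) after 24 h, where 5.88 and 8.44% of all genes were; 735 and 724 had the same sign. Of the 784 higher genes, 326 (41.6%) and 340 (43.4%) were called higher, where 6.23 and 6.97% of all genes were. In the genes called lower the median difference was -0.81 at baseline, -0.50 at 6 h and -0.55 at 24 h, and in those called higher 0.80, 0.49 and 0.47; the baseline values are the ones that chose the genes. Of the LPS-treated control arrays, 6 h replicate 3 and 24 h replicate 2 resembled unstimulated control arrays more than their own groups (correlations over genes of 0.95 and 0.91, against at most 0.821 and 0.857 with arrays of their own group), and without them the counts were 392 and 351 of the lower and 357 and 307 of the higher genes. Ch25h kept its difference at 6 h (3.26 ± 0.48) and 24 h (4.23 ± 0.48), as did Vdr (-2.34 ± 0.24 and -2.09 ± 0.24), Map3k14 (-1.52 ± 0.25 and -1.67 ± 0.25) and Ddit3 (1.92 ± 0.23 and 1.73 ± 0.23), each called at both times.

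A test of the change in the KO difference between treatments called 49 genes at 6 h (0.435%) and 99 at 24 h (0.879%). Several genes of inflammation and the interferon response that fell at baseline changed upward after LPS. Most named genes were called at baseline, and the change subtracts that same baseline difference, so movement toward 0 is favoured among them. The KO difference of Icam1 went from -1.45 at baseline to 0.046 ± 0.19 at 6 h (adjusted p of the change = 0.00512) and was -0.61 ± 0.19 at 24 h (0.156). That of Gbp2 went from -1.81 to 0.61 ± 0.33 and 0.37 ± 0.33 at 6 and 24 h (adjusted p = 0.00912 and 0.0197), and that of Zbp1 from -1.91 to 0.48 ± 0.35 and 0.46 ± 0.35 (0.0163 and 0.0151). Psmb8, Nfkbie, Traf1, Jak2, Slc2a6 and Tnfsf13b changed in the same sense at 1 time or both. The LPS differences printed here include the 2 control LPS arrays named above. Without those 2 arrays the changes of Icam1, Gbp2, Zbp1 and Flvcr2 at 6 h passed the test too (adjusted p = 0.000571, 0.000444, 0.00197 and 0.00373). The rise of Flvcr2 (2.58 at baseline) was 0.37 ± 0.28 and 0.34 ± 0.28 after LPS (0.00463 and 0.00489), where 3 of 5 control arrays at either time and 3 of 5 KO arrays at 6 h were well above background. Ccr7, Cd86 and Tnfrsf9 were not called at either time (Ccr7 -0.067 and -0.16, Cd86 -0.12 and -0.53, Tnfrsf9 -0.56 and -0.40), but the change itself did not pass the test for them (adjusted p = 0.494, 0.266 and 0.406 at 6 h).

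**Figure D5:**
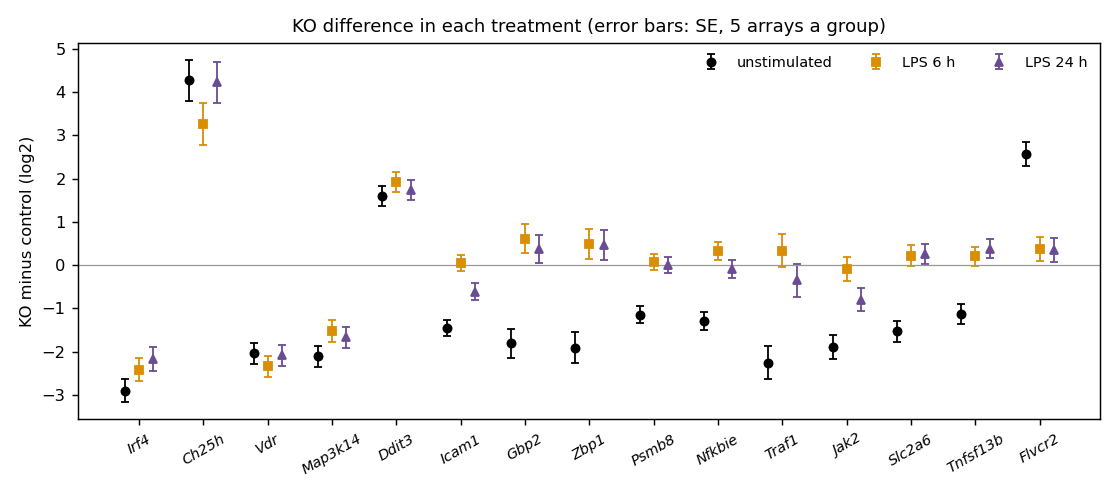
KO minus control difference of 15 genes on the log2 scale in unstimulated cells and after 6 and 24 h of LPS, as points with SE bars (5 arrays a group). Irf4, Ch25h, Vdr, Map3k14 and Ddit3 keep their side of 0 in all 3 treatments, while the differences of Gbp2, Zbp1 and Slc2a6 lie below 0 in unstimulated cells and above 0 after LPS. The LPS points include control 6 h replicate 3 and 24 h replicate 2, which resembled unstimulated control arrays.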

How the data were processed

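RNA of CD11c-selected BMDCs was hybridised with universal mouse reference RNA to 30 2-colour arrays. Per the file headers, spots were read with Feature Extraction 10.7.3.1, and the authors deposited for each array the median Cy5 and Cy3 intensity with local background, a log10 ratio of sample over reference, and 0 or 1 flags for other spot properties. The deposited value table holds log2 ratios; per the submitters' processing notes limma was used, and its column medians lay at 0.00584 to 0.0183, close to centred. Its columns correlated at 0.999885 to 0.999998 with the ratios computed here, which settles scale and direction.

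Here, median intensities were corrected with normexp (offset 50; local backgrounds flagged as nonuniform set to the array's median) and loess in limma 3.58.1 (R 4.3.3), with 1639 control spots at weight 0 and flagged spots left out. Of 41174 probes 22951 were named through RefSeq accessions (16358 genes), and 18223 were not. A gene was tested if it had a probe well above background on all 5 arrays of at least 1 of 6 groups. Among such probes the one of highest mean Cy5 signal represented the gene. One mean per group was fitted over 30 arrays with empirical Bayes moderation, and p-values were adjusted by Benjamini and Hochberg over 11260 genes. The array number limits precision. On simulated data, 67 of 100 genes with a log2 change of 1 and 97 of 100 with 2 were recovered, and 5.20% of calls were false. The simulated noise was independent between arrays, without slides or arrays that stood apart, so these shares do not cover such structure in the real arrays. Named genes were, per comparison, the 20 largest separated rises and falls and, per gene list, the called members of smallest p and the first members; not all of these are named. Members and lists were chosen with earlier results of these data known. Alternatives covered arrays left out, blocks, normalization, filters, probes and variance trend. The 0 saturated probes in Cy5 needed no bound.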

Additional observations from a re-analysis of the deposited data

Results flagged for a closer look

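Among 104 groups of 5 arrays looked at, 5 had an outer array that stood far from the other 4, and chance marks about 1 in 20. They were H2-Aa on KO replicate 1 (log2 level 2.68), Map3k14 on control replicate 3 (1.67), Ifi27l2a on control replicate 5 (2.78), Alox15 on control replicate 4 (2.78) and Zbtb46 on KO replicate 4 (0.558).

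For 11 named genes the KO difference in LPS-treated cells differed from that in unstimulated cells in the limma test of the difference itself. The values include the 2 control LPS arrays that resembled unstimulated ones. The log2 change was -2.21 at 6 h and -2.24 at 24 h for Flvcr2, which was higher in KO cells at baseline. Genes lower at baseline changed upward: Traf1 by 2.58 at 6 h, Gbp2 by 2.42 at 6 h and 2.18 at 24 h, and Zbp1 by 2.39 and 2.37. Jak2 changed by 1.8 at 6 h, Slc2a6 by 1.76 at 6 h and 1.79 at 24 h, and Nfkbie by 1.62 and 1.21. Icam1 changed by 1.5 at 6 h, Psmb8 by 1.22 at 6 h and 1.15 at 24 h, Tnfsf13b by 1.51 at 24 h and Acsl3 by 1.01 at 24 h.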

How the results depend on the processing

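Irf4 was lower in KO cells and called in all 30 alternatives (-2.18 with a fixed slide term to -3.44 with the scanner software's log ratio; -2.65 to -3.07 with single arrays left out). The count of 1587 genes called (784 higher, 803 lower) ran from 1104 to 1563 with single arrays left out (557 to 792 higher, 547 to 771 lower). It moved by more than 1.5 times with both KO arrays 1 and 5 left out (904; 472 higher, 432 lower), median centring without loess (936; 347 higher), the fixed slide term (5698; 2748 higher, 2950 lower), a term for replicates 1 to 3 against 4 and 5 (3447; 1698 higher, 1749 lower) and, chosen after seeing the data, replicates 4 and 5 only (3011; 1592 higher, 1419 lower). Deviations from the group mean correlated between same-numbered control and KO arrays at -0.004, 0.57, 0.54, -0.34 and 0.69. Arrays of unlike number were not compared, so whether replicate numbers pair the samples was not settled. The main fit had no replicate block. With a replicate block 3340 genes were called (1658 higher, 1682 lower), and all 1587 calls were kept. The cause of these moves was not tested. The fixed slide term relied in part on 2 control LPS arrays that resembled unstimulated ones, and it was not fitted without them. Signs turned with the fixed slide term for Stat4 (0.39), Fcrls (0.96), Irf1 (4.00), Irf2 (3.18), Irf7 (1.92), Tap1 (2.18), Tspan3 (0.084), Cacnb3 (0.40), Fscn1 (2.20), Cx3cl1 (0.87), Ccl5 (0.51), Ebi3 (0.11), Tlr4 (-1.22), Ifit1 (2.94), Isg15 (1.01), Hk1 (0.35), Atp6v1c1 (-1.03), Ccnd3 (0.65), Socs1 (0.32), Tnip3 (0.63), Relb (1.41), Stat5a (0.52), Cst3 (0.26), Cd74 (0.97), Ciita (0.21), H2-DMa (0.13), H2-DMb1 (0.31), Lgmn (2.60) and Marchf1 (-1.39). They turned with the scanner software's log ratio for Tnfsf4 (0.26), Cd83 (0.039), H2-Aa (0.15) and Siglecf (0.48), and with Cy5 alone for Chil3 (-0.18). Of 202 named genes, scaling between arrays ended the call on 44, the fixed slide term on 44 that kept their sign, leaving out both KO arrays 1 and 5 on 30, and the scanner software's log ratio and median centring on 11 each. Taking replicates 1 to 3 only ended the call on 16, and replicates 4 and 5 only on 22. The number of arrays, 5 a group, limits precision.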
